A study of Mus musculus with 23 samples.

Results

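The proliferating cells of 2 mouse cell types were compared: 5 cycling bone marrow mesenchymal stem cells (mMSC1, mMSC4, mMSC8, mMSC11 and mMSC14) and 4 cycling HL-1 cardiomyocytes (HL1cm1, HL1cm3, HL1cm4 and HL1cm5), 9 of the 23 libraries of the series. The mMSCs are the cells that the study placed in its proliferative (green) cluster. The HL1cm are the single HL-1 cells that were captured, without HL1cm2, which was left out for its low G2/M genes. The members on both sides were thus selected on measured transcript levels, for the mMSCs on the study's clustering and for the HL1cm on G2/M genes, so every difference between them is given as a description and not as a test.

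All cells carried the strain label C57BL/6J. The mMSCs came from male mice of 3 months of age, were purchased, and were used at passages 6 to 11 in alpha-MEM with fetal bovine serum on gelatin. HL-1 is a continuously dividing atrial cardiomyocyte line, derived from tumours of mice that carry the SV40 large T antigen under the atrial natriuretic factor promoter. It was used at passages 70 to 85 in Claycomb medium with norepinephrine on fibronectin and gelatin, and was stained with CellTracker Green. Single cells of both types were isolated with a Fluidigm C1 device, in which the dye told them apart. The series also holds 11 other single mMSCs and a population control of each type (mMSC-PC and HL1cm-PC). The labels name no separate cultures, so each cell type is 1 sample. Medium, passage, dye, the origin of HL-1 from tumours with large T antigen and cell type cannot be told apart.

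A dividing cell needs D-type and E-type cyclins with their kinases to leave G1, replication proteins such as the MCM helicase and PCNA to copy its DNA in S phase, and cyclins A and B, CDK1 and a spindle and cytokinesis apparatus in G2 and mitosis. Cardiac muscle covers its energy use mainly by oxidation of fatty acids in mitochondria and uses muscle forms of several enzymes, whereas cultured stromal cells rely more on glycolysis. Stress programs such as the p53 response, the heat shock response, the unfolded protein response and the NRF2 antioxidant response are active to some degree in most cultured cells. The comparison asks how these 3 kinds of program stand in 2 cell types that both divide in culture.

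Expression is given in FPKM as deposited, that is in fragments scaled to the length of the gene's transcripts and to the number of fragments mapped in the library. For means, values under 1 FPKM were set to 1 and log2 was taken, so that a difference of 1 is a 2-fold difference. Differences of genes whose true level is under 1 FPKM are understated. A gene missed in some cells is also set to 1 there, so its difference can be too large or too small. Values by cell are listed in the order mMSC1, mMSC4, mMSC8, mMSC11, mMSC14 and HL1cm1, HL1cm3, HL1cm4, HL1cm5. A gene listed at 0 may have been missed in that cell.

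The cycling mMSCs had 6814 to 7169 genes at 1 FPKM or more and the cycling HL1cm 6431 to 7003. The table holds no read counts. As a relative measure of depth, the 5th percentile of the values above 0, multiplied by the transcript length in kilobases, was taken over 3971 genes with a single transcript of 2500 bases or more. A higher value stands for a shallower library. It was 2.89 to 6.81 in the cycling mMSCs and 2.91 to 4.85 in the cycling HL1cm, so the ranges of the 2 types overlapped. The values of mMSC1 and mMSC8 were the highest, so these cells were the shallowest of the cycling mMSCs by this measure. FPKM summed over the symbols used was 616446 to 669131 in 7 of the 9 cells and was lower in HL1cm3 (507141) and HL1cm5 (443218). Pearson's r of log2 FPKM over 8931 genes was 0.684 to 0.712 between cycling mMSCs, 0.651 to 0.693 between cycling HL1cm and 0.457 to 0.520 between the types.

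Marker genes went with the labels. Of 20 cardiomyocyte genes, 19 were above 0 in at least 1 cycling HL1cm, and their summed FPKM was 33516 to 55555 there against 27.4 to 97.6 in the cycling mMSCs. In the mMSCs, 11 of these genes were at 0 in every cycling cell, among them Tnni3, Myl4, Gata4 and Des. Of 14 mesenchymal genes, 11 were above 0 in cycling mMSCs (summed FPKM 1647 to 4131, against 168 to 593 in the HL1cm), and Thy1, Lum and Dcn were at 0 in all of them. Macrophage genes reached a sum of 45.2 to 87.2 FPKM in the mMSCs and 0 to 1.096 in the HL1cm. In the mMSCs this was mostly Cd14, with Cd68 in mMSC11, while Ptprc, Lyz2 and Emr1 were at 0. No endothelial gene was above 0 in the cycling mMSCs. Of 7 such genes, 2 were above 0 in at least 1 cycling HL1cm, where the sum was 0 to 13.8 FPKM.

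For the HL1cm, the values behind the choice of cells are those of the G2/M genes. The mMSCs were chosen by the study's green cluster, for which the paper reports cell division and DNA replication genes as upregulated. The mean log2 FPKM over 67 G2/M genes was 4.12, 4.80, 4.80, 5.38 and 4.57 in the cycling mMSCs, and the nearest mMSCs outside the cluster were mMSC5 at 2.93 and mMSC6 at 2.31. In the cycling HL1cm it was 6.51, 5.76, 5.43 and 5.53, against 2.03 in HL1cm2. HL1cm2 and mMSC6 nevertheless had S phase genes at the level of the chosen cells, with means of 4.98 and 4.71.

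**Figure D1:**
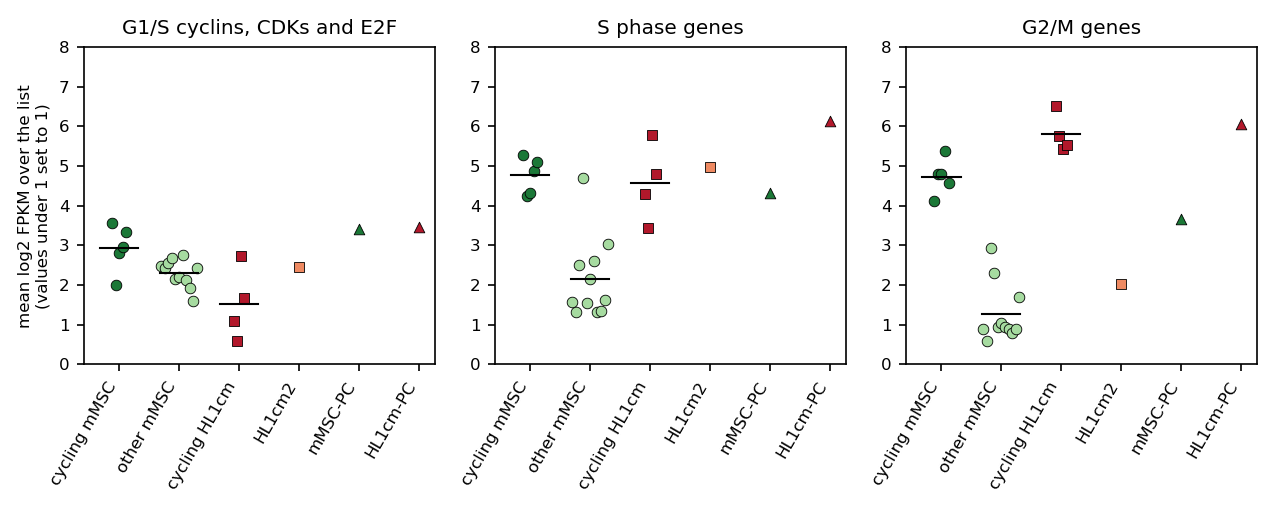
Mean log2 FPKM (values under 1 set to 1) over 3 cell cycle lists, 1 point per library and a bar at the mean of each set of single cells. The 5 cycling mMSCs and 4 cycling HL1cm lie together for S phase genes (4.26 to 5.28 and 3.43 to 5.79). For G2/M genes they lie apart by a narrow gap (4.12 to 5.38 and 5.43 to 6.51). HL1cm2, at 2.03 for G2/M genes, was left out of the cycling HL1cm because these genes were low in it.

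In 3 or more of the 9 cells, 8931 genes reached 1 FPKM. Of these, 2654 (29.7%) were higher in the cycling mMSCs by 1 or more in mean log2 FPKM and 2130 (23.8%) were lower. In 632 of the higher genes (7.08% of the 8931) and 439 of the lower ones (4.92%), the cells of the 2 types did not overlap. The median difference over the 8931 genes was 0.17. It moved to 0.02 when libraries were rescaled to the same FPKM sum and to 0.01 with median-of-ratios size factors, and the share of higher genes among those past 1 then moved from 55.5% to 50.7% and 50.3%. Differences below are best read against that median. Against these shares stand 22 lists of cell cycle, metabolic and stress genes, with 545 distinct genes, of which 544 were in the table and 494 passed the filter. The list medians were below -1 for fatty acid oxidation, the TCA cycle, the respiratory chain, G2/M genes and the 4 CDK inhibitors that passed. They were above 1 for G1/S regulators and the pentose phosphate pathway. With 1 cell left out, the smallest medians were 0.74 for G1/S, 0.96 for the pentose phosphate pathway and -0.73 for G2/M. They were -0.90 for the TCA cycle and -0.91 for the respiratory chain. Those of fatty acid oxidation and the CDK inhibitors stayed below -1.

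**Figure D2:**
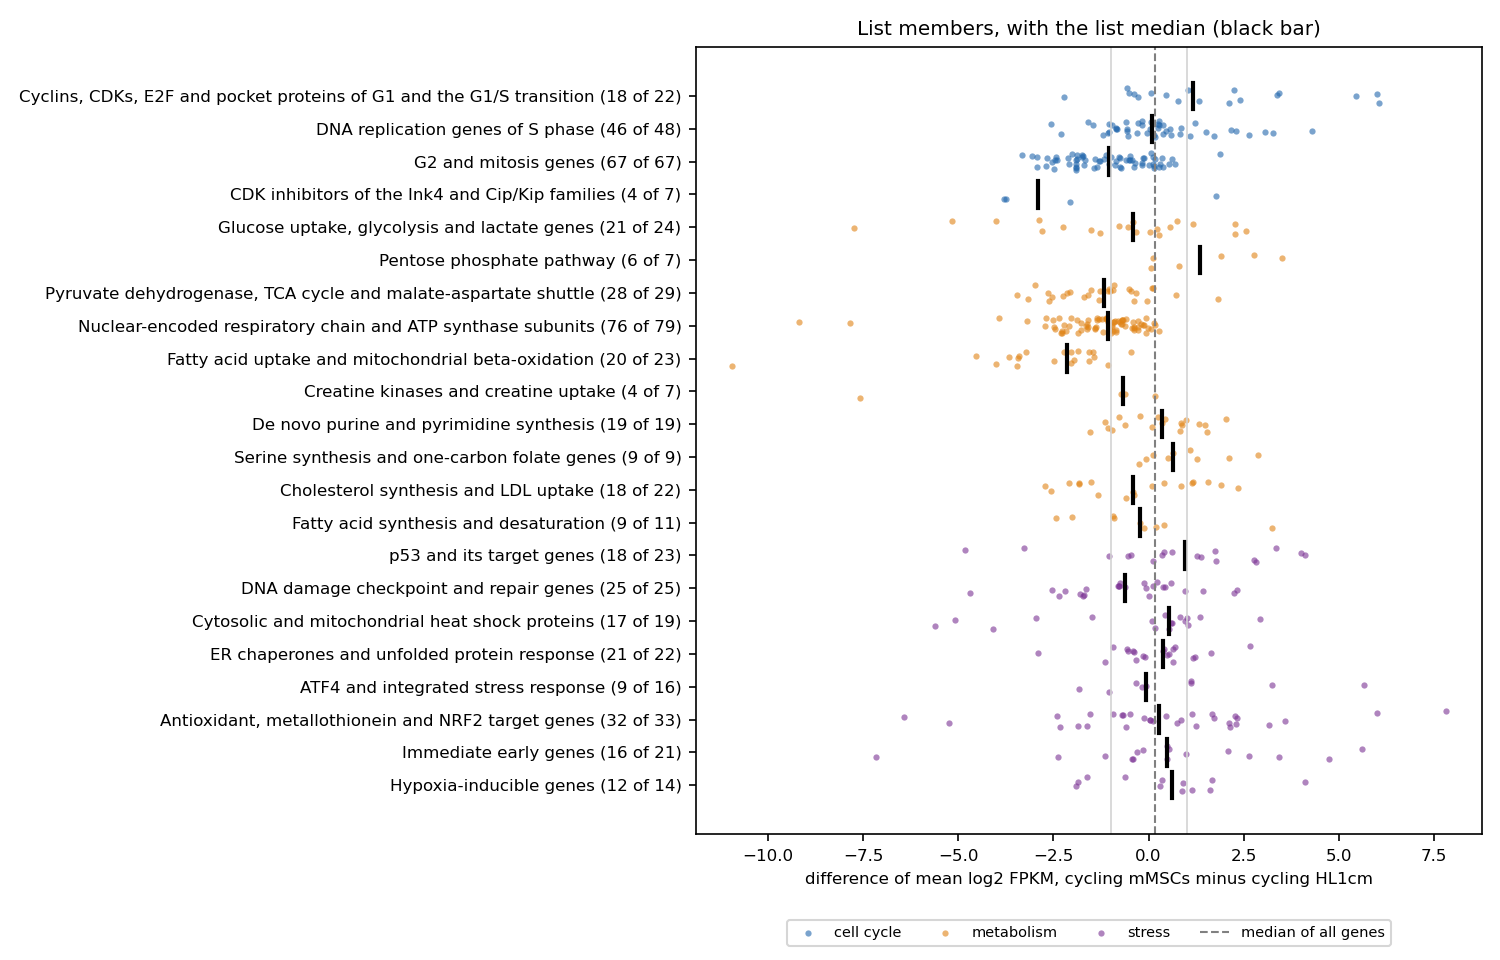
Difference in mean log2 FPKM (cycling mMSCs minus cycling HL1cm) for each list member that passed the filter, with the number of members in brackets, a black bar at the list median and a dashed line at the median of all genes (0.17). The fatty acid oxidation list (median -2.14) lies furthest to the left of the lists with more than 10 members, and the G1/S list (median 1.18) furthest to the right.

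The list of G1 and the G1/S transition holds 22 genes, with cyclins, CDKs, E2F and pocket proteins and also Myc, and 18 of them passed the filter. Of these, 10 were higher in the cycling mMSCs by 1 or more (29.7% of all genes were) and 1 was lower, with a median difference of 1.18. The cells did not overlap in 5 of the 10 (7.08% of all genes). Without HL1cm1 the median was 0.74. The D-type cyclins Ccnd1, Ccnd2 and Ccnd3 carry growth signals to the G1 kinases CDK4 and CDK6, and the first 2 of them did not overlap. Ccnd1 (chromosome 7, 144929931 to 144939831 in GRCm38.p6, the assembly that mm10 names) was at 67.3, 61.3, 20.8, 40.5 and 83.04 FPKM in the mMSCs and at 1.56, 0, 0 and 0 in the HL1cm. Ccnd2 (chromosome 6, 127125162 to 127152188) was at 88.4, 61.1, 66.9, 76.6 and 98.4 FPKM in the mMSCs and at 1.63, 0, 0.535 and 1.14 in the HL1cm. For both genes the lowest mMSC was above 10 times the highest HL1cm. In mean log2 FPKM, Ccnd1 was 5.62 ± 0.79 (SD over cells, n = 5) against 0.16 ± 0.32 (n = 4), and Ccnd2 was 6.27 ± 0.28 against 0.22 ± 0.33.

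Ccnd1 and Ccnd2 were also set apart in the libraries outside the comparison. Ccnd1 was at 53.8 FPKM in mMSC-PC and 0 in HL1cm-PC, and Ccnd2 at 223 and 0. HL1cm2 had both at 0, and the 11 other mMSCs had Ccnd2 at 89.1, 189 and 242 FPKM (lowest, median and highest). Ccnd3 overlapped, at 23.6, 3.25, 40.2, 10.5 and 37.7 FPKM in the mMSCs and 3.42, 0, 41.4 and 0 in the HL1cm, and was at 58.4 and 31.5 FPKM in mMSC-PC and HL1cm-PC. The summed FPKM of the 3 genes was 126 to 219 in the cycling mMSCs, 6.61, 0, 41.9 and 1.14 in the cycling HL1cm, and 336 and 31.5 in mMSC-PC and HL1cm-PC. In these bulk controls, as in any population, fewer cells of a kind and less RNA per cell cannot be told apart.

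Myc, a growth-promoting transcription factor, was at 15.3, 98.6, 122, 68.5 and 85.5 FPKM in the mMSCs and listed at 0 in all 4 cycling HL1cm. HL1cm2 had 136 FPKM of it and HL1cm-PC 87.4, against 115 in mMSC-PC, so the absence held for the 4 cycling cells and not for all HL-1 libraries. The other 2 genes without overlap, named after their values were seen, were the G1 kinase Cdk4 (219.9 to 472 FPKM against 15.1 to 164) and the E2F partner Tfdp1, with differences of 2.12 and 3.38 in mean log2 FPKM. Ccne1, the E-type cyclin that starts S phase with CDK2, was above 0 in 4 of 5 mMSCs (96.3, 0, 20.3, 71.3 and 20.8 FPKM) and in 1 of 4 HL1cm (0, 0, 11.004 and 0), so the groups overlapped, and HL1cm-PC was higher than mMSC-PC (64.2 and 37.7). In the population controls the list median was -0.48, the same as over all genes.

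S phase genes were at similar levels on average. As the paper reports DNA replication genes as upregulated in the green cluster, this likeness was set in part by the choice of mMSCs. Of 48 DNA replication genes, 46 passed the filter, with 10 higher and 8 lower by 1 or more (29.7% and 23.8% of all genes) and a median difference of 0.10, close to that of all genes. Mean log2 FPKM over the 48 genes was 4.77 ± 0.46 (SD, n = 5 cells) in the mMSCs and 4.58 ± 0.99 (n = 4) in the HL1cm. The HL1cm spread more widely, from 3.43 in HL1cm3 to 5.79 in HL1cm4. Mcm2, a subunit of the replicative helicase, was at 23.5, 13.7, 22.4, 21.9 and 55.5 FPKM in the mMSCs and 16.6, 14.2, 24.3 and 30.5 in the HL1cm. Pcna, the sliding clamp of DNA polymerase, was at 436, 209, 146, 269 and 562 FPKM in the mMSCs and 39.8, 30.6, 546 and 159.5 in the HL1cm. Both genes overlapped between the types, and Pcna was lowest in HL1cm1 and HL1cm3. Without HL1cm3 and HL1cm5, the cells with the lowest FPKM sums, the list median was -0.43, with 9 genes higher and 16 lower. With all 16 single mMSCs in place of the cycling ones the list median was -2.09, and between the population controls it was -1.91.

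Single S phase genes differed without overlap. Hells, a chromatin remodeller of replicating cells, was at 83.3, 109, 54.5, 171 and 124 FPKM in the mMSCs and 0, 1.22, 40.02 and 14.3 in the HL1cm, a difference of 4.30 in mean log2 FPKM. Gmnn, which keeps replication origins from firing again, differed by 3.07 (82.9 to 182 FPKM against 8.55 to 37.3), and the helicase subunit Mcm4 by 3.26 (58.2 to 136 against 0 to 33.4). In the population controls all 3 went the other way (Gmnn 27.1 FPKM in mMSC-PC and 128 in HL1cm-PC, Mcm4 37.1 and 60.4, Hells 14.1 and 21.6). Rpa1, a subunit of the protein that coats single-stranded DNA, was higher in the HL1cm, at 101, 78.8, 537 and 85.9 FPKM against 19.4, 6.06, 39.4, 59.8 and 26.3, and likewise in HL1cm-PC (718 against 56.4).

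**Figure D3:**
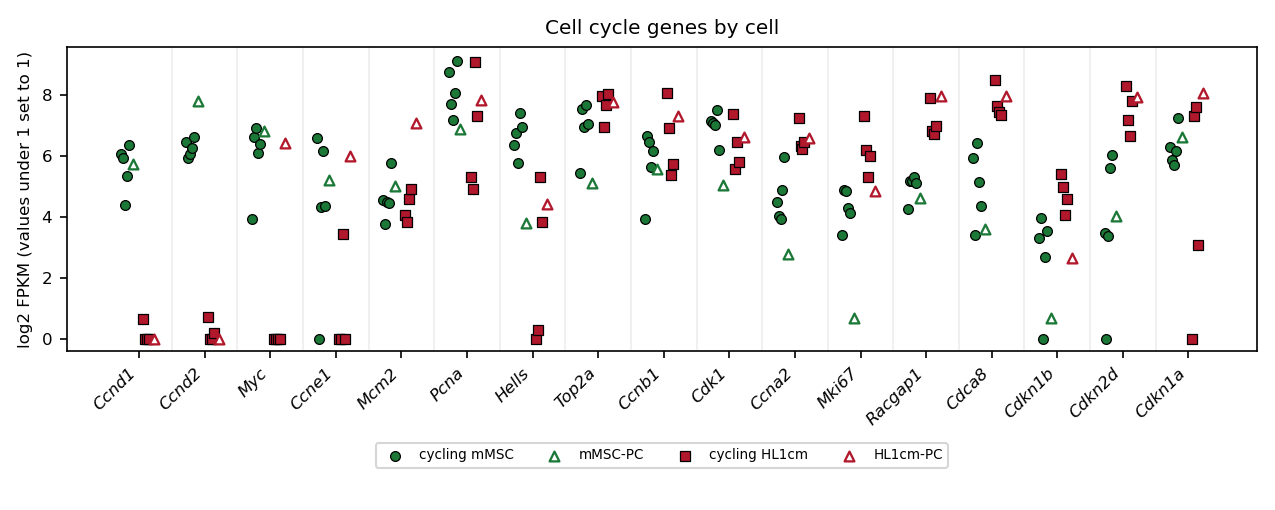
Log2 FPKM (values under 1 set to 1) of 17 cell cycle genes, with filled circles for the 5 cycling mMSCs, filled squares for the 4 cycling HL1cm and open triangles for the population controls. Ccnd1 and Ccnd2 separate the types upwards in the mMSCs, Mcm2, Top2a and Ccnb1 overlap, and Mki67, Racgap1 and Cdca8 lie higher in the HL1cm.

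G2/M genes were higher in the cycling HL1cm. All 67 genes of the list passed the filter, 34 were lower in the mMSCs by 1 or more (23.8% of all genes were), 1 was higher (Kif20a, a mitotic kinesin named here after its values were seen), and the median difference was -1.04. Since low G2/M genes took HL1cm2 out of the comparison, this direction was set in part by the choice of cells, and with HL1cm2 added the median was -0.31. The mean over the list was 4.73 ± 0.46 (SD, n = 5 cells) in the mMSCs and 5.81 ± 0.49 (n = 4) in the HL1cm. At 1 FPKM or more, the mMSCs had 59 to 65 and the HL1cm 64 to 67 of the 67 genes, and the 11 other mMSCs had 14 to 48.

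Of the 67 genes, 7 were lower in the mMSCs without overlap (4.92% of all genes were). As HL1cm2 was left out for its low G2/M genes, this count was also set in part by the choice of cells. It cannot be read against that share. Mki67, the gene of the proliferation antigen Ki-67, was at 10.6, 29.5, 28.996, 19.9 and 17.7 FPKM in the mMSCs and 160.0, 74.3, 39.9 and 65.01 in the HL1cm, a difference of -1.90. Ccna2, the cyclin of S phase and G2, was at 22.6, 16.4, 15.2, 29.7 and 62.8 FPKM in the mMSCs and 152, 81.6, 74.8 and 88.996 in the HL1cm, a difference of -1.91. Every cycling HL1cm was above every cycling mMSC for both genes, with the narrowest gap for Mki67 between mMSC4 and HL1cm4.

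Cdca8, Racgap1 and Stmn1 act in cell division itself. Cdca8, a subunit of the chromosomal passenger complex, was at 61.3, 10.7, 86.2, 35.2 and 20.4 FPKM in the mMSCs and 361, 202, 174 and 164 in the HL1cm. The cytokinesis regulator Racgap1 was at 19.3, 36.5, 36.2, 40.02 and 35.1 FPKM in the mMSCs and 242, 113, 106 and 128 in the HL1cm. Stmn1, which destabilises microtubules, was at 174, 510.1, 545, 293 and 229 FPKM in the mMSCs and 2129, 1023, 1698 and 963 in the HL1cm. Their differences were -2.68, -2.10 and -2.11 in mean log2 FPKM. In HL1cm2 Cdca8 and Racgap1 were at 14.5 and 16.98 FPKM, within the range of the mMSCs or below it, while Stmn1 was at 1220.5 FPKM, as high as in the other HL1cm. The same 3 genes were higher in HL1cm-PC than in mMSC-PC (Cdca8 251 and 12.1 FPKM, Racgap1 252 and 24.9, Stmn1 1818 and 49.2).

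The kinase and cyclin pair that drives entry into mitosis did not separate the types. Cdk1 was at 143, 136, 132, 182 and 74.5 FPKM in the mMSCs and 167, 47.3, 89.5 and 55.9 in the HL1cm, with a higher mean in the mMSCs by 0.69. Ccnb1 was at 15.4, 103, 89.2, 49.6 and 71.7 FPKM in the mMSCs and 273, 122, 41.9 and 53.3 in the HL1cm, with a lower mean in the mMSCs by 0.76. Top2a, the topoisomerase that untangles sister chromatids, was at 43.96, 189, 126, 204 and 133 FPKM in the mMSCs and 254, 125, 205 and 262 in the HL1cm. All 3 overlapped, and all 3 were higher in HL1cm-PC than in mMSC-PC (Cdk1 98.3 and 33.5 FPKM, Ccnb1 161 and 47.7, Top2a 219.8 and 34.7). Over the whole list the population controls differed by a median of -2.33. Each control pools many cells, and the cause of this larger difference was not tested.

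The balance of the 2 phases varied from cell to cell. The G2/M mean minus the S phase mean was -1.16, 0.54, 0.49, 0.50 and -0.55 in the mMSCs and 2.22, 2.33, -0.36 and 0.72 in the HL1cm. HL1cm1 and HL1cm3 thus had the strongest tilt towards G2/M genes, and mMSC1 the strongest towards S phase genes. Outside the chosen cells, HL1cm2 (-2.95) and mMSC6 (-2.40) tilted further towards S phase than any of the 9.

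CDK inhibitors hold the cycle back. Of the 7 genes of the Cip/Kip and Ink4 families, 4 passed the filter, 3 of them lower and 1 higher in the mMSCs by 1 or more (23.8% and 29.7% of all genes). Cdkn1b (p27) was at 9.93, 15.7, 0, 6.44 and 11.6 FPKM in the mMSCs and 42.9, 31.7, 16.7 and 23.99 in the HL1cm. Cdkn2d (p19Ink4d) was at 11.05, 0, 10.5, 48.98 and 66.2 FPKM in the mMSCs and 318, 145, 101 and 227 in the HL1cm. Both were higher in the HL1cm without overlap (4.92% of all genes were), by 2.06 and 3.79 in mean log2 FPKM. Cdkn2c (p18) was at 0, 4.61, 0, 20.4 and 0 FPKM in the mMSCs and 0, 51.9, 189 and 125 in the HL1cm, with HL1cm1 at 0 among otherwise high HL1cm.

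The 4 other inhibitors showed no even difference. Cdkn1a (p21), the inhibitor that p53 induces, was at 79.6, 58.97, 53.005, 71.9 and 153 FPKM in the mMSCs and at 0, 160.0, 196 and 8.55 in the HL1cm, from 0 in HL1cm1 to above every mMSC in HL1cm3 and HL1cm4. HL1cm-PC had more of it than mMSC-PC (269.5 and 98.5 FPKM). Cdkn2a was at 0 in every mMSC and in 3 HL1cm, with 40.5 FPKM in HL1cm5 (its 2 products, p16 and p19Arf, share a locus and are not told apart here). Cdkn2b was above 0 only in mMSC11 and HL1cm3 among the 9 cells, and Cdkn1c was at 0 in all of them.

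Many genes of these lists carry known cell cycle elements before their start. RefSeq promoters (GRCm38.p6, 250 bases before to 50 after a transcript start) were found for 437 of the 545 list genes. The CHR element TTTGAA, which with the CCAAT box CCAAT is known from G2/M promoters, was present on either strand in 40 of 57 promoters of the G2/M list (70.2%) and in 17.9% of all 32851 promoters. CCAAT was present in 44 of the 57 (77.2%) and in 37.4% of all promoters, but it was as frequent in the promoters of the ER list (16 of 19, 84.2%) and the cholesterol list (15 of 18, 83.3%). An E2F site, searched as TTTGGCGC or TTTCCCGC on either strand, was present in 13 of 47 S phase promoters (27.7%) and in 1.56% of all. Like shares were seen in the G1/S list (5 of 20, 25%) and the DNA damage list (4 of 16, 25%). A match is a description of the letters, not of binding.

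The 250 bases before the start are printed for Mki67, which was higher in the HL1cm without overlap, and for Cdk1, which overlapped, as both have the CHR element in capitals at 2 places. Hells is shown for an S phase gene that was higher in the mMSCs, with its E2F site in capitals. The Mki67 stretch lies at chr7:135716380-135716629, that of Cdk1 at chr10:69352913-69353162 (both on the minus strand) and that of Hells at chr19:38930740-38930989 on the plus strand.
Mki67: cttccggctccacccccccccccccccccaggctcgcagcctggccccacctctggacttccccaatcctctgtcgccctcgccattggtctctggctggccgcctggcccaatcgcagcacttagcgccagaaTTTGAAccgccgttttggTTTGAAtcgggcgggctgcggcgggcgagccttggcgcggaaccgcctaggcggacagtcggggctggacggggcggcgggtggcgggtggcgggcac
Cdk1: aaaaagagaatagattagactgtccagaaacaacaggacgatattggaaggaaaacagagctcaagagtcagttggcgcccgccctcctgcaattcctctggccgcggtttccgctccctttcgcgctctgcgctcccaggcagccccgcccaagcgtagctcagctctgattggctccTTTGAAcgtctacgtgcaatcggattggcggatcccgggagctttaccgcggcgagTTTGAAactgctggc
Hells: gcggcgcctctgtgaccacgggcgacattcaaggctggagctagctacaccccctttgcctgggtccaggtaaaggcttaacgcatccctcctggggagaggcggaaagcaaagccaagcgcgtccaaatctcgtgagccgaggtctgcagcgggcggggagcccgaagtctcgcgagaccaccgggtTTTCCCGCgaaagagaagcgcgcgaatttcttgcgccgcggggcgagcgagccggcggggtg
In Mki67 the CHR elements begin 116 and 98 bases before the start, in Cdk1 71 and 15 bases, and in Hells the E2F site begins 62 bases before it. Mki67 and Cdk1 carry the same element. Whether the element goes with the difference between the types was not tested.

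Genes of energy metabolism were lower in the cycling mMSCs in most of their lists. Of 23 genes of fatty acid uptake and mitochondrial beta-oxidation, 20 passed the filter, 19 were lower in the cycling mMSCs by 1 or more (23.8% of all genes were), none was higher, and 9 did not overlap (4.92% of all genes). The median difference was -2.14. Fabp3, the heart fatty acid-binding protein (chromosome 4, 130308738 to 130315463), was listed at 0 in all 5 mMSCs and at 3866, 1374, 2186 and 1328 FPKM in the HL1cm. Acadm, the medium-chain acyl-CoA dehydrogenase, was at 21.004, 8.88, 0, 9.83 and 7.97 FPKM in the mMSCs and 431, 154, 151 and 62.3 in the HL1cm. Ppargc1a, a coactivator of mitochondrial genes, was listed at 0 in every mMSC and at 7.96, 10.2, 42.5 and 18.96 FPKM in the HL1cm. Each of these genes was higher in every HL1cm than in any cycling mMSC.

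The carnitine palmitoyltransferases, which bring fatty acids into mitochondria, have a liver and a muscle form. Cpt1a, the liver form, was at 10.1, 0, 3.84, 1.04 and 1.35 FPKM in the mMSCs and 17.4, 15.5, 31.4 and 35.4 in the HL1cm. Cpt1b, the muscle form, was at 0 in every mMSC and at 31.04, 0, 12.5 and 0 in the HL1cm. The muscle form was thus above 0 in 2 of 4 HL1cm and above the liver form only in HL1cm1. The population controls had the same direction for the list, with a median difference of -2.55. The mean over the 23 genes was 2.36 ± 0.38 (SD, n = 11) in the other mMSCs, 2.41 ± 0.38 (n = 5) in the cycling mMSCs, 4.99 ± 0.34 (n = 4) in the cycling HL1cm and 5.45 in HL1cm2. Dividing and other mMSCs thus had like means for these genes, and HL1cm2 was as high as the highest cycling HL1cm.

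Of 79 nuclear-encoded subunits of the respiratory chain and ATP synthase, 76 passed the filter. Of these, 40 were lower in the mMSCs by 1 or more (23.8% of all genes), none was higher, the cells did not overlap in 20 (4.92% of all genes), and the median difference was -1.07. The mean over the list was 7.34, 7.16, 7.36, 7.47 and 7.19 in the mMSCs and 9.03, 8.87, 8.71 and 7.97 in the HL1cm. The mMSCs lay within 0.31 of each other, and HL1cm5 was lowest among the HL1cm but above all mMSCs. When libraries were rescaled to the same sum, 49 subunits were lower.

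Cytochrome c oxidase has heart and muscle forms of several subunits. Cox7a1, the heart form (chromosome 7, 30184171 to 30186030), was listed at 0 in all 5 mMSCs and at 622, 1236, 679.6 and 221 FPKM in the HL1cm. Its widely expressed counterpart Cox7a2 was at 166, 258, 532, 158 and 320.1 FPKM in the mMSCs and 801, 498, 425 and 339 in the HL1cm. Cox7a1 made up 39.5% to 71.3% of the summed FPKM of the pair in the cycling HL1cm, 47.9% in HL1cm2 and 57.3% in HL1cm-PC. Every HL-1 library thus held both forms at comparable levels, and among the 11 other mMSCs Cox7a1 was above 0 in 1 (mMSC13, 32.1% of the pair). Cox6a2, the heart and muscle form of another subunit, was at 0 in all 16 single mMSCs and in mMSC-PC and at 186, 258, 415 and 141 FPKM in the cycling HL1cm, 2.46% to 8.22% of its pair with Cox6a1. Cox6a1 itself was at 2027, 1505, 5117, 2526 and 2053 FPKM in the mMSCs and 7345, 4932, 4634 and 4034 in the HL1cm. The muscle form was thus a minor part of this pair in every HL1cm. Cox8b, the muscle form of yet another subunit, was above 0 only in HL1cm3 among the 9 cells (55.7 FPKM), while Cox8a was at 954, 595, 889.6, 861 and 1165 FPKM in the mMSCs and 965, 1343, 1531 and 874 in the HL1cm. Of the 3 pairs, the heart form was thus at about the level of the common form in 1 and at a small share or at 0 in the other 2.

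**Figure D4:**
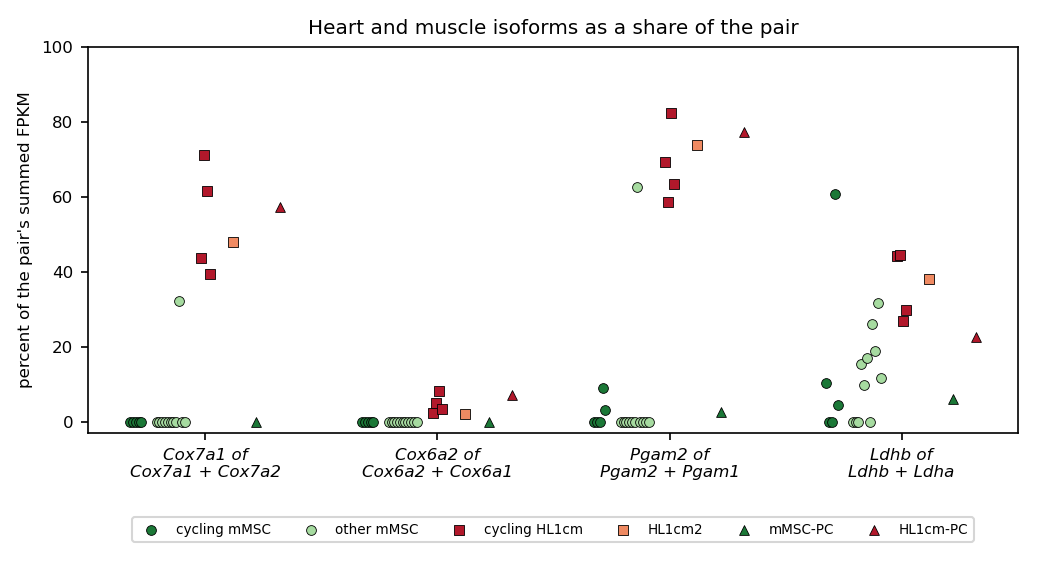
Share of a heart or muscle isoform in the summed FPKM of its pair (percent), 1 point per library. Cox7a1 and Pgam2 lie at 39.5% or more in every single HL1cm and at 8.91% or less in the cycling mMSCs, Cox6a2 stays at 8.22% or less everywhere, and Ldhb overlaps because of mMSC11 (60.8%).

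Of 29 genes of pyruvate dehydrogenase, the TCA cycle and the malate-aspartate shuttle, 28 passed the filter. In the mMSCs 17 were lower by 1 or more (23.8% of all genes), 1 was higher (Idh1, the cytosolic isocitrate dehydrogenase, named after its values were seen), 7 were lower without overlap (4.92% of all genes), and the median difference was -1.17. Mdh1, the cytosolic malate dehydrogenase of the shuttle, was at 90.4, 87.2, 119.8, 94.9 and 71.9 FPKM in the mMSCs and 1144, 1081, 848 and 264 in the HL1cm. Idh2, the mitochondrial isocitrate dehydrogenase, was at 65.2, 5.69, 22.9, 28.7 and 16.8 FPKM in the mMSCs and 293, 168, 379 and 153 in the HL1cm. Dlat, a subunit of pyruvate dehydrogenase, was at 3.12, 8.05, 0, 15.1 and 0.765 FPKM in the mMSCs and 25.8, 15.4, 17.8 and 24.2 in the HL1cm. Of the 3, Mdh1 was the most even in the mMSCs, with 71.9 to 119.8 FPKM, and the HL1cm ranged from 264 in HL1cm5 to 1144 in HL1cm1. Mdh1 and Idh2 were also higher in HL1cm-PC than in mMSC-PC (1267 and 83.7 FPKM for Mdh1, 627 and 53.6 for Idh2).

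A motif of nuclear respiratory factor 1, a known regulator of respiratory chain genes, was searched in the same promoters as GCGCANGC on either strand. It was present in 23 of 70 promoters of the respiratory chain list (32.9%) and in 9.95% of all promoters. Other lists had like shares, such as 5 of 13 hypoxia promoters (38.5%), 9 of 34 TCA promoters (26.5%) and 12 of 57 G2/M promoters (21.1%). Atpif1, the inhibitor of ATP synthase, is shown as the member of the list with this motif before the start that differed most without overlap (509.8, 324, 162, 471 and 474 FPKM in the mMSCs and 2752, 2684, 2067 and 1901 in the HL1cm, named after its values were seen), with the motif in capitals. Pgam2, the muscle form of a glycolytic enzyme described next, is shown with the E-box CAGCTG in capitals. This motif was no more frequent in the glycolysis list (4 of 31 promoters, 12.9%) than in all promoters (16.3%). The stretches lie at chr4:132535415-132535664 and chr11:5803797-5804046, both on the minus strand.
Atpif1: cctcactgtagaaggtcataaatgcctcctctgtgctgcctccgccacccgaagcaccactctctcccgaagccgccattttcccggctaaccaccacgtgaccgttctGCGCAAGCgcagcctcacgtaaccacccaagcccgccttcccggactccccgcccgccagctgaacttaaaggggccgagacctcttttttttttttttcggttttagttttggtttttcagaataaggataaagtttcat
Pgam2: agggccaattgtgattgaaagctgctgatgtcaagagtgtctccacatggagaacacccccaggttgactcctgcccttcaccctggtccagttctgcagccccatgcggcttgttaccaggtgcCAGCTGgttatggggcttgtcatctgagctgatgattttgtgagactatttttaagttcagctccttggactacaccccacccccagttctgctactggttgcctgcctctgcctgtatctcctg
The motifs begin 141 and 125 bases before the start.

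Glycolytic genes went both ways. Of 24 genes of glucose uptake, glycolysis and lactate handling, 21 passed the filter, with 4 higher and 8 lower in the mMSCs by 1 or more (29.7% and 23.8% of all genes) and a median difference of -0.40. Without HL1cm3 and HL1cm5 the median was -1, with 4 genes higher and 11 lower. Hk2, an inducible hexokinase, was at 309, 889.8, 327, 487 and 455 FPKM in the mMSCs and 74.7, 88.1, 135 and 88.8 in the HL1cm. Pkm2 (an older symbol of the pyruvate kinase gene Pkm) was at 434, 586, 637, 808 and 949 FPKM in the mMSCs and 199.7, 79.9, 399.8 and 52.4 in the HL1cm. The phosphoglycerate kinase Pgk1 was at 646, 961, 1116, 503 and 628 FPKM in the mMSCs and 486, 236, 331 and 304 in the HL1cm. These 3 were higher in every mMSC than in any cycling HL1cm, by 2.28, 2.28 and 1.17 in mean log2 FPKM. The population controls had the same order for each (Hk2 40.1 FPKM in mMSC-PC and 15.9 in HL1cm-PC, Pkm2 3794 and 457, Pgk1 1144 and 816).

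Pgam2, Gpi1 and Slc16a1 were higher in the HL1cm without overlap. Pgam2, the muscle phosphoglycerate mutase (chromosome 11, 5801637 to 5803796), was at 0, 0, 0, 18.3 and 12.1 FPKM in the mMSCs and 724, 485, 1332 and 329 in the HL1cm. The common form Pgam1 was at 436, 162, 366, 187 and 381 FPKM in the mMSCs and 319, 342, 287 and 188 in the HL1cm. Pgam2 was 58.6% to 82.3% of the pair in the cycling HL1cm and 0% to 8.91% in the cycling mMSCs, and mMSC10 outside the cluster had 62.7%. The muscle form was thus the main one in every cycling HL1cm and a minor one in every cycling mMSC. The glucose phosphate isomerase Gpi1 was at 86.5, 65.1, 146, 212 and 126 FPKM in the mMSCs and 513, 215, 500.5 and 229 in the HL1cm. The lactate and pyruvate carrier Slc16a1 was at 11.9, 7.85, 18.1, 3.87 and 1.93 FPKM in the mMSCs and 70.98, 24.01, 64.98 and 42.1 in the HL1cm.

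Lactate dehydrogenase subunits and other common enzymes overlapped. Ldhb, the heart-type subunit, was at 44.4, 0, 0, 402 and 16.02 FPKM in the mMSCs and 733, 574, 508 and 182 in the HL1cm, with mMSC11 as high as the HL1cm. Ldha, the muscle-type subunit, was at 385, 226, 485, 258 and 332 FPKM in the mMSCs and 920.0, 719.8, 1371 and 428 in the HL1cm, with only mMSC8 above the lowest HL1cm. Both subunits thus had higher means in the HL1cm. Gapdh, often used as a reference gene, was at 227, 191, 206, 224 and 178 FPKM in the mMSCs and 237, 395, 236 and 190.1 in the HL1cm. Eno1, the common enolase, which has a near-identical copy in the genome, was at 153, 54.7, 208, 85.7 and 193 FPKM in the mMSCs and 282, 0.0138, 327 and 313 in the HL1cm. The muscle form Eno3 was at 27.2, 34.9, 128, 209 and 207 FPKM in the mMSCs and 94.3, 387, 167 and 87.04 in the HL1cm. Eno1 in HL1cm3 was close to 0 in a cell whose other glycolytic enzymes were well expressed.

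The pentose phosphate pathway yields NADPH and ribose. Of its 7 genes, 6 passed the filter, 3 were higher in the mMSCs by 1 or more (29.7% of all genes), none was lower, and none separated the cells. G6pdx, the first enzyme, was at 12.8, 32.3, 48.9, 30.6 and 24.7 FPKM in the mMSCs and 68.2, 0, 0 and 3.91 in the HL1cm. Pgls, the lactonase, was at 52.1, 14.8, 24.7, 16.1 and 90.9 FPKM in the mMSCs and 0, 0, 55.2 and 0 in the HL1cm. Pgd, which yields ribulose phosphate, was at 9.25, 6.98, 43.7, 0 and 13.6 FPKM in the mMSCs and 0, 0, 0 and 22.98 in the HL1cm. All 3 were above 0 in every mMSC except Pgd in mMSC11, and each was at 0 in 2 or 3 HL1cm. In the reversible branch, the transaldolase Taldo1 was at 80.4 to 385 FPKM in the mMSCs and 61.2 to 329 in the HL1cm, the transketolase Tkt at 0 to 8.74 and 0 to 5.06, and the epimerase Rpe at 1.53 to 28.5 and 0 to 22.1. All of these overlapped, and the isomerase Rpia was at 0 in all 9 cells. In the population controls the list median was 0.16, and with values under 10 FPKM set to 10 it was 0.14 in place of 1.36.

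Creatine kinases buffer ATP in muscle. Ckmt2, the mitochondrial kinase of striated muscle, was listed at 0 in all 5 mMSCs, in the 11 other mMSCs and in mMSC-PC, and was at 171, 255, 512 and 62.1 FPKM in the cycling HL1cm, 142 in HL1cm2 and 275 in HL1cm-PC. The cytosolic muscle kinase Ckm and the ubiquitous mitochondrial kinase Ckmt1 were at 0 in all 9 cells. Ckb, the brain form, was at 26.7, 0, 0, 99.5 and 22.9 FPKM in the mMSCs and 70.8, 0, 61.1 and 0 in the HL1cm. The creatine carrier Slc6a8 was at 3.66, 24.4, 0, 27.6 and 1.21 FPKM in the mMSCs and 11.7, 6.20, 15.6 and 3.90 in the HL1cm. Gamt of creatine synthesis was at 14.6, 0, 0, 0 and 9.90 FPKM in the mMSCs and 0, 51.01, 5.70 and 0 in the HL1cm. Gatm, the first enzyme of that synthesis, was above 0 only in mMSC8 (3.13 FPKM). Ckmt2 was the only member of the list that separated the types.

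Biosynthetic lists showed smaller and mixed differences. All 19 genes of purine and pyrimidine synthesis passed the filter, with 4 higher and 3 lower in the mMSCs (29.7% and 23.8% of all genes) and a median of 0.34, and all 9 genes of serine synthesis and one-carbon folate metabolism passed, with 4 higher and none lower and a median of 0.65. No gene of either list separated the cells. Of 22 genes of cholesterol synthesis and uptake, 18 passed, with 5 higher and 7 lower (29.7% and 23.8% of all genes) and a median of -0.40. Of the 7, 4 were lower without overlap (4.92% of all genes). Insig1, which restrains sterol synthesis, was at 17.5, 33.1, 9.42, 99.3 and 25.2 FPKM in the mMSCs and 203, 133, 298 and 119 in the HL1cm. The sterol desaturase Sc5d was at 59.9, 5.87, 7.52, 31.05 and 93.98 FPKM in the mMSCs and 134, 153, 154 and 127 in the HL1cm. The epoxidase Sqle was at 28.5, 17.3, 9.91, 32.3 and 0 FPKM in the mMSCs and 49.7, 51.4, 51.8 and 35.4 in the HL1cm. Of these, only Sc5d went the other way in the population controls, at 48.8 FPKM in mMSC-PC and 37.1 in HL1cm-PC. Of 11 genes of fatty acid synthesis, 9 passed, with 1 higher and 2 lower (29.7% and 23.8% of all genes) and a median of -0.24. The higher gene was Scd1, a fatty acid desaturase, at 16.4, 8.65, 2.78, 15.3 and 12.7 FPKM in the mMSCs and listed at 0 in the 4 cycling HL1cm, with 38.4 FPKM in mMSC-PC and 2.06 in HL1cm-PC.

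No stress list had a median beyond 1 in either direction. The medians lay between -0.61 for DNA damage checkpoint and repair genes and 0.95 for p53 and its targets, and both values rested in part on 1 cell, with -0.11 for DNA damage without HL1cm4 and 0.38 for p53 without HL1cm1. Single genes differed strongly in both directions. Since the HL1cm alone were stained with a dye and grown with norepinephrine, handling and cell type cannot be told apart for these genes.

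Of 23 genes of p53 and its targets, 22 were in the table and 18 passed the filter, with 9 higher and 3 lower in the mMSCs by 1 or more (29.7% and 23.8% of all genes). Trp53 itself was at 184, 292, 195, 265 and 205 FPKM in the mMSCs and 43.03, 95.03, 133 and 133 in the HL1cm, a difference of 1.28 without overlap. It was at 200.1 FPKM in HL1cm2 and at 234 and 298 FPKM in mMSC-PC and HL1cm-PC, so that the order did not extend to these libraries. Tnfrsf10b, a death receptor, was at 20.9, 22.4, 16.03, 9.88 and 26.97 FPKM in the mMSCs and 0, 0, 0 and 1.69 in the HL1cm. Btg2, an antiproliferative target, went the other way, at 0, 0, 0, 0 and 2.99 FPKM in the mMSCs and 41.5, 59.7, 132 and 4.61 in the HL1cm, and was at 244 FPKM in HL1cm2.

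All 25 DNA damage checkpoint and repair genes passed, with 3 higher and 8 lower (29.7% and 23.8% of all genes). Chek1, the kinase of the replication checkpoint, was at 2.57, 5.70, 2.31, 18.6 and 10.2 FPKM in the mMSCs and 0, 0, 0.479 and 2.22 in the HL1cm, but higher in HL1cm-PC than in mMSC-PC (9.43 and 2.09 FPKM). Xrcc5, the larger subunit of the Ku end-joining complex, was at 0, 0, 0, 0 and 2.27 FPKM in the mMSCs and 45.3, 16.2, 41.5 and 28.6 in the HL1cm, and at 6.83 and 65.8 FPKM in the 2 population controls. Xrcc5 was thus listed at 0 in 4 of 5 cycling mMSCs and above 10 FPKM in every HL1cm.

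Heat shock proteins are chaperones that keep other proteins folded. Of 19 cytosolic and mitochondrial heat shock genes, 17 passed, with 4 higher and 5 lower in the mMSCs (29.7% and 23.8% of all genes) and a median of 0.54. Hspa8, the constitutive cytosolic HSP70, was at 4184, 4019.5, 3129, 4228 and 5000.3 FPKM in the mMSCs and 2708, 682, 3037 and 1109 in the HL1cm. Hsp90aa1, a stress-inducible HSP90, was at 868, 985, 774, 815 and 1500.1 FPKM in the mMSCs and 409, 377, 741 and 531 in the HL1cm. Both were higher in every mMSC, by 1.36 and 0.95 in mean log2 FPKM, with narrow gaps to HL1cm4.

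Hspb6, Hspb7 and Hspb8, small heat shock proteins known from muscle, were higher in every HL1cm. Hspb6 was at 30.6, 0, 46.1, 0 and 25.7 FPKM in the mMSCs and 452, 199.5, 455 and 149 in the HL1cm. Hspb7 was at 0 in every mMSC and at 3.62, 11.6, 6.53 and 13.1 FPKM in the HL1cm. Hspb8 was at 0, 0, 12.8, 0 and 0 FPKM in the mMSCs and 99.5, 38.4, 109 and 104 in the HL1cm. Hspb8 was above 0 in mMSC8 alone among the cycling mMSCs. In HL1cm2 the 3 genes were at 252, 25.3 and 45.95 FPKM, and in mMSC-PC and HL1cm-PC Hspb6 was at 21.2 and 359, Hspb7 at 0 and 51.1, and Hspb8 at 15.6 and 175 FPKM. The direction was thus the same in these libraries outside the comparison.

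The unfolded protein response acts on proteins of the endoplasmic reticulum (ER). Of 22 ER chaperone and unfolded protein response genes, 21 passed, with 4 higher and 2 lower (29.7% and 23.8% of all genes) and a median of 0.39. Hspa5, the chaperone BiP, was at 479, 767, 309, 749 and 1191 FPKM in the mMSCs and 715, 248, 653 and 237 in the HL1cm. Hyou1, an ER chaperone of the HSP110 family, was at 0, 1.20, 2.21, 1.31 and 1.74 FPKM in the mMSCs and 4.29, 21.98, 11.9 and 11.7 in the HL1cm, the only member that separated the types. Of 16 genes of ATF4 and the integrated stress response, 9 passed, with 4 higher and 2 lower (29.7% and 23.8% of all genes) and a median of -0.06. Nupr1, a small stress-induced nuclear protein, was at 183, 454, 213, 434 and 421 FPKM in the mMSCs and 58.4, 0, 0 and 26.3 in the HL1cm, with 261 FPKM in mMSC-PC and 25.2 in HL1cm-PC. The mMSCs were spread on this list, with means over the 16 genes of 3.01, 5.52, 3.01, 4.07 and 3.30, and mMSC4 was highest.

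The antioxidant list was mixed. Of 33 antioxidant, metallothionein and NRF2 target genes, 32 passed, with 13 higher and 7 lower in the mMSCs (29.7% and 23.8% of all genes), of which 6 and 4 did not overlap (7.08% and 4.92% of all genes). Gpx8, a glutathione peroxidase of the ER (chromosome 13, 113042757 to 113046430), was at 219.7, 543, 439, 827 and 317 FPKM in the mMSCs and 0, 12.2, 0 and 0 in the HL1cm. Prdx5, a peroxiredoxin, was at 2091, 1904, 977, 1313 and 794 FPKM in the mMSCs and 169, 195, 383 and 37.4 in the HL1cm. Nfe2l2, the gene of NRF2 itself, was at 63.96, 51.3, 111, 57.5 and 149 FPKM in the mMSCs and 0, 5.27, 19.9 and 17.8 in the HL1cm. These 3 were higher in every mMSC, by 7.83, 3.17 and 3.59 in mean log2 FPKM, but Nfe2l2 was at 120.1 FPKM in HL1cm2, within the range of the mMSCs.

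Hmox1, the haem oxygenase induced by NRF2, was at 0, 281, 255, 278 and 408 FPKM in the mMSCs and 0, 4.90, 0 and 0 in the HL1cm. The groups overlapped because mMSC1 was listed at 0, while the other 4 mMSCs lay within 255 to 408 FPKM, and HL1cm2 had 131 FPKM. In the 11 other mMSCs Hmox1 was at 8.28, 56.2 and 585 FPKM (lowest, median and highest).

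Other antioxidant genes were higher in the HL1cm. Sod2, the mitochondrial superoxide dismutase, was at 38.5, 23.7, 11.7, 16.95 and 24.5 FPKM in the mMSCs and 114, 52.4, 119 and 48.1 in the HL1cm. Gpx3, the plasma glutathione peroxidase, was at 306, 0, 109.8, 0 and 46.8 FPKM in the mMSCs and 2148, 1858, 2417 and 525 in the HL1cm. Mt1, a metal-binding metallothionein, was at 46.8, 317, 395, 508 and 138 FPKM in the mMSCs and 1489.6, 1953, 963 and 546 in the HL1cm. Mt1 reached 3017 FPKM in 1 of the other mMSCs, above every HL1cm, so it did not separate all mMSCs from the HL1cm.

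Immediate early genes respond to stimulation within minutes. Of 21, 16 passed, with 5 higher and 3 lower (29.7% and 23.8% of all genes) and a median of 0.48. Fos (chromosome 12, 85473890 to 85477274) was listed at 0 in all 5 mMSCs and was at 148, 60.6, 251 and 184 FPKM in the cycling HL1cm. In the 11 other mMSCs it was at 0, 0 and 7.78 FPKM, in HL1cm2 at 394, and in mMSC-PC and HL1cm-PC at 2.02 and 147. Fos was thus at 60.6 FPKM or more in every HL-1 library and at 7.78 FPKM or less in every mMSC library.

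Ctgf and Ier3 were higher in every cycling mMSC. Ctgf, a matricellular protein, was at 123, 45.4, 138, 91.4 and 51.3 FPKM in the mMSCs and 1.77, 0, 4.45 and 0 in the HL1cm. Ier3, an early response gene, was at 131, 168, 212, 595 and 30.1 FPKM in the mMSCs and 0, 6.79, 17.5 and 9.19 in the HL1cm. The lowest mMSC was above the highest HL1cm for both. In mMSC-PC and HL1cm-PC Ctgf was at 791 and 16.3 FPKM and Ier3 at 985 and 87.1. Of 14 hypoxia-inducible genes, 12 passed, with 4 higher and 3 lower (29.7% and 23.8% of all genes) and a median of 0.62. Vegfa, the angiogenic growth factor, was at 12.99, 47.8, 14.3, 14.5 and 12.2 FPKM in the mMSCs and listed at 0 in the 4 cycling HL1cm, with 3.69 FPKM in HL1cm2, 17.1 in mMSC-PC and 1.45 in HL1cm-PC.

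**Figure D5:**
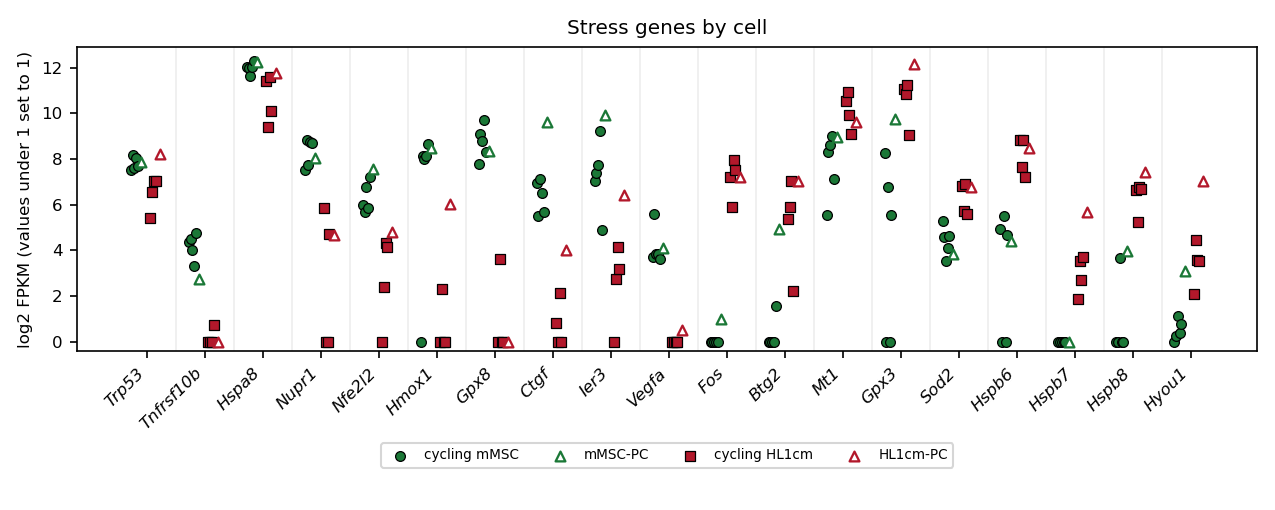
Log2 FPKM (values under 1 set to 1) of 19 stress genes, with filled circles for the 5 cycling mMSCs, filled squares for the 4 cycling HL1cm and open triangles for the population controls. Genes from Trp53 to Vegfa have higher means in the mMSCs and genes from Fos to Hyou1 in the HL1cm, and Hmox1 overlaps because of mMSC1.

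Across the 22 lists, 92 genes differed by 1 or more without overlap. The population controls are separate libraries, but mMSC-PC was part of the study's clustering and fell with the green cluster. The controls had the same direction for 85 of the 92 genes, that is for 47 of 48 metabolic genes, 23 of 25 stress genes and 15 of 19 cell cycle genes. Over all genes that differed in this way the same direction held for 981 of 1071 (91.6%), and the share of the listed genes was close to it. The 7 exceptions were Chek1, Gmnn, Hells, Mcm4, Tfdp1 and Trp53, which were higher in the cycling mMSCs but lower in mMSC-PC, and Sc5d. Between the population controls, 1589 genes (17.8%) were higher in mMSC-PC by 1 or more and 3305 (37%) were lower.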

How the data were processed

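Single-cell and population RNA-seq libraries were made with SMARTer and Nextera kits, which do not mark strand, so reads of overlapping genes on opposite strands cannot be told apart. According to the study's methods and the submitters' processing notes, reads were mapped to mm10 with TopHat2 (version 2.0.12). The authors computed the deposited FPKM values per gene with Cufflinks (version 2.2.1). The table holds 23284 genes, and neither read counts nor depth. The 759 symbols that start with Mir or Snor were left out, as short RNAs take up to 76.2% of the summed FPKM of a cell. Near-identical copies make Gapdh, Eno1, Fth1, Ftl1 and Hspa8 uncertain, and Cdkn2a is 1 row for 2 products.

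Here, values under 1 FPKM were set to 1, log2 was taken, and the genes that reached 1 FPKM in 3 or more of the 9 cells were compared by the difference of means and by whether cells overlapped (Python 3.11.15, numpy 2.4.6, pandas 2.3.3). No test was run, since each cell type is 1 sample and cells are not replicates. Simulated differences were recovered with the right sign, but this does not bear on how reliable the calls made here are. Recovery was not tested for differences as small as 1 in log2 or for genes missed in some cells. Named were the up to 3 members of each list with the largest difference in each direction without overlap, all members of lists of 7 or fewer, and a set of cycle, isoform and stress genes whatever their values. A gene that the rule names is not reported here. The members and lists were chosen with earlier results of these data known. Alternatives covered the floor, the filter, the scaling, the cells used and the population controls. Promoters are from RefSeq (GRCm38.p6).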

Additional observations from a re-analysis of the deposited data

Results flagged for a closer look

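In 26 of 238 sets of 4 or 5 cells checked, 1 cell stood apart from the others of its type by Dixon's criterion. Chance alone marks about 1 in 20 sets of evenly spread values. That share cannot be read against these counts, since in 16 of the 26 every other cell was at 0 or under 1 FPKM and the gap was fixed by the floor. On the log2 scale, the cell that stood apart was at 1.58 for Btg2 and 1.19 for Xrcc5 (both mMSC14), 4.20 for Cdkn2b (mMSC11), 1.65 for Gatm and 3.68 for Hspb8 (both mMSC8). Among the HL1cm it was at 0.64 for Ccnd1 (HL1cm1), 3.46 for Ccne1 and 5.79 for Pgls (both HL1cm4), 5.34 for Cdkn2a, 1.15 for Chek1, 4.52 for Pgd and 0.75 for Tnfrsf10b (all HL1cm5), and 3.05 for Cdkn2b, 5.80 for Cox8b, 3.61 for Gpx8 and 2.29 for Hmox1 (all HL1cm3).

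Hmox1 and Eno1 were each at 0 in a single cell of a type that otherwise had much of them. Hmox1 was at 0 in mMSC1, with 7.99 to 8.67 in the other mMSCs. Eno1 was at 0 in HL1cm3 on this scale, with 8.14 to 8.35 in the other HL1cm. Other cells stood apart at levels above 0, namely mMSC1 for Myc (3.94) and Racgap1 (4.27), mMSC4 for Vegfa (5.58), HL1cm4 for Rpa1 (9.07), HL1cm3 for Hspb8 (5.26) and HL1cm5 for Sqle (5.14). The mean of the 7 CDK inhibitors was lowest in HL1cm1, at 1.96.

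Outside the genes compared, symbols that start with Mir or Snor held 2.16% to 76.2% of the summed FPKM of the 9 cells, with the highest share in HL1cm5 (76.25%), while the population controls had 0.199% (mMSC-PC) and 2.40% (HL1cm-PC). The share was 75.01% in mMSC1, 7.53% in mMSC11 and 2.16% in HL1cm4, so it differed as much within a cell type as between them.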

How the results depend on the processing

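No paired analysis was possible because each cell is its own capture and replicate numbers mark no shared source. Shifts were read against the spread between cells (1 SD). This measure cannot judge the omission of a single cell, since that cannot move a mean by so much. Leaving out each of the 9 cells in turn moved no gene count by over 1.5 times, but it moved 16 of the 22 list medians by over 1.5 times or turned their sign. The other 6 were G2/M, CDK inhibitors, the TCA cycle, the respiratory chain, fatty acid oxidation and the pentose phosphate pathway. The S phase median ranged from -0.37 to 0.39 and that of the integrated stress response from -0.41 to 0.69. Rescaling to the same sum or by size factors, log2(FPKM + 1) and dropping the filter kept list medians within the spread between cells. They kept the counts over all genes within 1.5 times. Within lists, rescaling to the same sum lowered some counts of higher genes and raised none. These counts fell from 4 to 2 for heat shock and for the integrated stress response, and from 5 to 3 for cholesterol. In the respiratory chain, the lower genes rose from 40 to 49. Of 264 list medians under alternatives other than leaving out 1 cell, 236 moved by less than the spread between cells. So did 1017 of the values of named genes, while 101 moved by more. Setting values under 10 FPKM to 10 gave 1011 higher and 813 lower genes, and medians of 0.14 for the pentose phosphate pathway and -1.21 for fatty acid oxidation. Requiring 1 FPKM in 6 cells gave 1667 and 1187 genes and -0.90 for fatty acid synthesis. With medians over cells the pentose phosphate value was 2.16, and with HL1cm2 added the G2/M value was -0.31. Without HL1cm3 and HL1cm5, an alternative added after the data were seen, the TCA cycle was at -1.64, ER stress at -0.11 and the integrated stress response at -1.15. In the same alternative glycolysis was at -1, creatine at -2.15 and p53 and its targets at 1.47.

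With all 16 mMSCs the medians were -2.09 for S phase, -3.53 for G2/M, -1.60 for DNA damage, -0.42 for nucleotide synthesis, -0.84 for cholesterol, -0.83 for fatty acid synthesis and -0.19 for ER stress. The population controls gave 1589 higher and 3305 lower genes, and medians of -0.48 for G1/S (opposite in sign), -1.91 for S phase, -2.33 for G2/M, -2.17 for DNA damage, 0.16 for the pentose phosphate pathway, -1.67 for the TCA cycle, -1.77 for the respiratory chain, -1.18 for nucleotide synthesis, -0.58 for serine and folate, -1.04 for fatty acid synthesis, -0.32 for heat shock, -0.13 for ER stress and -0.51 for antioxidant genes. There, 10 named genes had the opposite sign: Ccne1 (-0.77), Cdkn1a (-1.45), Chek1 (-2.17), Gmnn (-2.23), Hells (-0.62), Mcm4 (-0.70), Pcna (-0.97), Pgls (-0.62), Sc5d (0.39) and Trp53 (-0.35). The cause was not tested. The table gives no depth, so a gene listed at 0 may lie under a floor that is not known.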
